A study of Mus musculus with 12 samples.

Results

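The genes described here are 10 markers and regulators of the cartilage and bone lineages, taken by symbol from a table of 56748 genes counted in mouse mesenchymal cells. The chondrogenic members are Sox9, Sox5, Sox6, Acan and Comp, and the osteogenic members are Runx2, Sp7, Alpl, Tnfrsf11b and Dlx5, 5 of each. RNA was sequenced from 10T1/2 cells (C3H10T1/2, a line derived from mouse embryos that behaves as mesenchymal precursors, with wild-type genotype) in 12 libraries, with 4 biological replicates in each of 3 groups. All cells were starved of serum, kept suspended for 1 h, plated, and left for 18 h in 0.5% serum on polyacrylamide hydrogels of 12 kPa carrying type I collagen at 0.05 mg/ml. The col1 group had collagen alone, the col1-ACLP group had aortic carboxypeptidase-like protein (ACLP), a secreted collagen-binding protein, polymerized into the collagen at 30 nM, and the col1-ACLP+SB group had the same ACLP matrix with SB431542, an inhibitor of the TGFβ receptor kinase ALK5, at 5 µM. The ACLP was recombinant protein made in a human cell line. No group had SB431542 on collagen without ACLP, so the inhibitor's own effect on these genes and its effect on the response to ACLP cannot be told apart.

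Cells of the 10T1/2 line are multipotent and can be driven towards cartilage, bone or fat by growth factors. In the cartilage lineage, the transcription factor SOX9 switches on the genes of the cartilage matrix, and SOX5 and SOX6, which bind DNA beside it, strengthen that action; aggrecan (Acan) and cartilage oligomeric matrix protein (Comp) are matrix products. In the bone lineage, RUNX2 and then SP7 (osterix) commit cells to the osteoblast fate, DLX5 acts on both, and tissue-nonspecific alkaline phosphatase (Alpl) releases phosphate for mineral. Osteoprotegerin (Tnfrsf11b) is a secreted decoy receptor that binds the osteoclast-inducing ligand RANKL, and it is made by osteoblasts and by many other stromal cells.

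The stretches of 200 bases before the annotated start of 5 members are shown. The 5 are 4 of the genes that passed a test below, and Acan, which had no counts. The stretches were read from the GRCm39 genome at the canonical transcript starts of GENCODE, 5′ to 3′ on the gene's strand. These starts can differ from the gene ends in the deposited table. For Sox6 the stretch reaches 115445602 and lies inside the deposited gene, whose 5′ end is at 115638031. Which start these cells use was not tested. Capitals mark matches, on either strand, to 6 short motifs. The RUNX core was searched as TGTGGT. The SOX core was searched as AACAAT and the TEAD core was searched as GGAATG. For AP-1 factors the letters were TGANTCA, for the SMAD box they were CAGAC, and for the TATA box they were TATAAA. The matches marked do not overlap.
Tnfrsf11b, chr15:54142076-54142275, minus strand: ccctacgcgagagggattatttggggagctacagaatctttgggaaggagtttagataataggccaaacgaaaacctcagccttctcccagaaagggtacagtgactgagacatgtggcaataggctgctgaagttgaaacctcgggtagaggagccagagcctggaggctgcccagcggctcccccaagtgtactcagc
Sox9, chr11:112672809-112673008, plus strand: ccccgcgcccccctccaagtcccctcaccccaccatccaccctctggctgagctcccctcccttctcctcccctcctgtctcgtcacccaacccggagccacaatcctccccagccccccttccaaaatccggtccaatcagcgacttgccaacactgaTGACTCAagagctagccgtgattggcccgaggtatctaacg
Sox6, chr7:115445403-115445602, minus strand: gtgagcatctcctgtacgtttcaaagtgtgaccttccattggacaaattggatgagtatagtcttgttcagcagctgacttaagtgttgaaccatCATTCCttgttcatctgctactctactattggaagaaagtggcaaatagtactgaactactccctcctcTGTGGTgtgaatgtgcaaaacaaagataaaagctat
Comp, chr8:70825992-70826191, plus strand: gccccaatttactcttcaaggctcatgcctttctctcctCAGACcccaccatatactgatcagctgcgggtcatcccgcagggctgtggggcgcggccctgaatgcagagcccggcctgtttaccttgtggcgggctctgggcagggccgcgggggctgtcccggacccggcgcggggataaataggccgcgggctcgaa
Acan, chr7:78702764-78702963, plus strand: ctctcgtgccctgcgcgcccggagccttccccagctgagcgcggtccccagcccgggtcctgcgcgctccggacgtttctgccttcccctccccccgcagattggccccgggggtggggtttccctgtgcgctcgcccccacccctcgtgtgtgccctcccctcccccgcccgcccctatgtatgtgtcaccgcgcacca

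None of the 6 motifs was matched in the Tnfrsf11b or Acan stretch. The Sox9 stretch held an AP-1 match from -41 to -35 relative to the start. This motif was found in 3.52% of 12696 stretches of the same length before annotated starts. In the Sox6 stretch, the TEAD core lay on the other strand, as CATTCC, from -105 to -100 and TGTGGT from -36 to -31, and these motifs were found in 9.09% and 9.11% of all stretches. The Comp stretch held a CAGAC from -161 to -157, as did 34% of all stretches at some position. GC content was 40.5% before Sox6, 53.5% before Tnfrsf11b, 63% before Sox9, 65.5% before Comp and 74% before Acan, whose stretch held 20 CpG pairs. A match describes letters and does not show that a factor was bound.

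Libraries held from 29246154 to 52201922 counts on genes, so that a gene with 0 counts in a library could still have been present at up to 0.0575 to 0.103 CPM (counts scaled to a common library size by the TMM method), the level that 3 counts would give. Reads had no molecular identifiers, so this limit and the errors of counting given below leave out errors of library preparation. Along the first principal component col1 replicate 2 stood apart at -86.7, with the remaining col1 libraries from -11.1 to -8.97 and the 8 ACLP libraries from 10 to 20.6. The 7 mesenchymal markers examined (such as Col1a1, Pdgfra and Prrx1) were all counted in each group, with a summed level of 25400 to 26300 CPM on col1, 35200 to 43400 CPM on col1-ACLP and 32100 to 37600 CPM on col1-ACLP+SB. The sum followed the collagen genes Col1a1 and Col1a2, called higher on col1-ACLP than on col1 (log2 fold changes of 0.82 and 0.65), whereas Pdgfra was called lower (-0.76), Prrx1 (-0.16) and Pdgfrb (-0.15) were lower by edgeR's adjusted p alone, and the median over the 7 was -0.088. Summed markers of other cell types reached at most 17 CPM for adipocytes, 10.7 CPM for macrophages, 4.84 CPM for epithelium, 0.579 CPM for endothelium and 0.27 CPM for skeletal muscle. The adipocyte sum was 12.6 to 17 CPM on col1, 6.98 to 9.41 CPM on col1-ACLP and 9.54 to 13 CPM on col1-ACLP+SB, with 2 of 5 markers at 0 in each of the first 2 groups and 3 of 5 in the last. The macrophage sum was 9.14 to 10.5, 5.32 to 8.85 and 7.48 to 10.7 CPM in the same order, with 2 of 5 markers at 0 in each group. Most of the adipocyte sum was Lipe, with means of 14.2, 8.29 and 11.0 CPM in the same order. Most of the macrophage sum was Cd68, with means of 9.47, 6.73 and 8.05 CPM. Lipe was called lower on col1-ACLP than on col1 (log2 fold change -0.78), and Cd68 was lower by edgeR's adjusted p alone (-0.49). These sums do not show that such cells were present, and any part of such cells in the results below was not tested.

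Of the 10 members, 7 had enough counts to pass the filter and be tested (Sox9, Sox6, Comp, Runx2, Sp7, Tnfrsf11b and Dlx5), and Acan, Sox5 and Alpl did not. A gene was called when the adjusted p of edgeR's quasi-likelihood test was under 0.05 and its log2 fold change was beyond 0.58 in size. Between col1-ACLP and col1, 1 of the 7, Tnfrsf11b, was called, and over all 16465 genes tested 4.97% were called (2.61% higher). By the adjusted p alone, Tnfrsf11b, Sox6 and Sox9 were higher on col1-ACLP and Comp and Runx2 lower, 5 of 7, where 17.9% of all tested genes passed (9.52% higher and 8.41% lower). In the same 5 genes the 4 libraries of col1-ACLP did not overlap the 4 of col1, as in 21.2% of all tested genes (10.9% with col1-ACLP higher and 10.3% with it lower). The median log2 fold change of the 7 was -0.15, and that of all tested genes was -0.0099. In these bulk samples, fewer cells expressing a gene and less RNA per cell cannot be told apart.

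**Figure D1:**
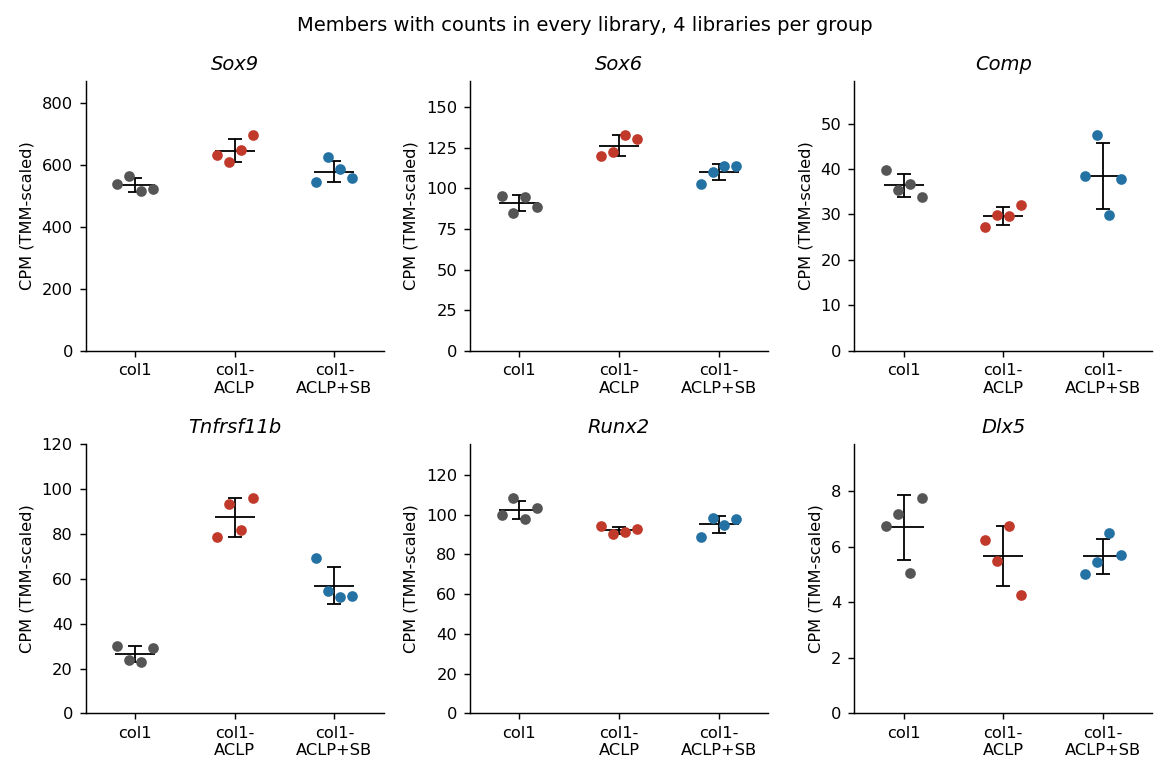
Level of the 6 members with counts in every library, in TMM-scaled CPM on linear axes from 0, by group. Each point is 1 library (4 per group, replicates 1 to 4 from left to right) and the bars show the mean ± SD. Tnfrsf11b and Sox6 lie in separate ranges in the 3 groups, and the Dlx5 ranges overlap.

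Levels between genes were compared as CPM per kilobase of gene length. On col1, Sox9 stood highest of the members at 129.2 ± 5.38 CPM per kb (mean ± SD, n = 4), higher over all 12 libraries than 98.6% of tested genes. Comp (12.3 CPM per kb) and Runx2 (11.6 CPM per kb) overlapped each other, and both lay above Tnfrsf11b (9.41 CPM per kb), which lay above Sox6 (6.12 CPM per kb) and Dlx5 (2.96 CPM per kb). Sp7 followed at 0.108 CPM per kb, and its library range overlapped those of Alpl and Sox5. On col1-ACLP the order changed in 1 place that the libraries separated, with Tnfrsf11b second at 31.0 CPM per kb, above Runx2 (10.4 CPM per kb) and Comp (10.0 CPM per kb). On col1-ACLP+SB Tnfrsf11b was again second, at 20.2 CPM per kb.

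**Figure D2:**
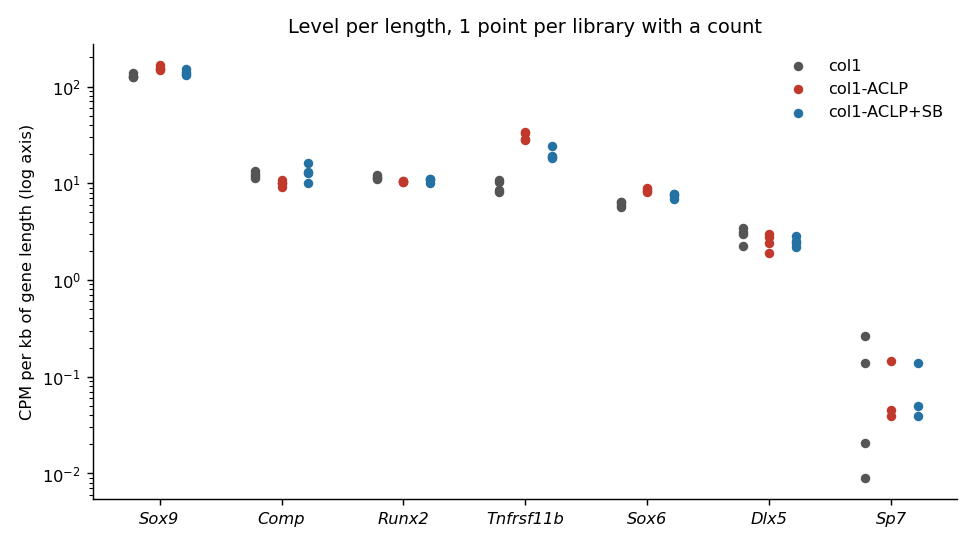
Level of 7 members per kilobase of gene length, on a log axis, in each library with a count (1 point per library, colours for the 3 groups). Sox9 lies above 124 CPM per kb in all 12 libraries, Sp7 below 0.265 CPM per kb, and Tnfrsf11b moves from below Comp and Runx2 on col1 to above them in the ACLP groups.

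Sox9 (ENSMUSG00000000567, chromosome 11 from 112673050 to 112678586, plus strand, GRCm39) encodes the master regulator of chondrocytes. Its level in the col1 libraries was 536.5, 564.5, 513.7 and 522.3 CPM, a mean of 534.2 ± 22.2 CPM (SD, n = 4). On col1-ACLP it was 630.6, 607.3, 647.5 and 695.5 CPM (645.2 ± 37.3 CPM). On col1-ACLP+SB it was 544.5, 623.3, 585.6 and 556.6 CPM (577.5 ± 35.1 CPM). All 4 col1-ACLP libraries were above all 4 col1 libraries, and the inhibitor group overlapped both. Against col1, Sox9 rose on col1-ACLP by 0.27 on the log2 scale (standard error 0.0494, adjusted p = 0.000208, edgeR), and its adjusted p stayed under 0.05 in all 20 alternative fits (8 with another scaling, filter, model or tool and 12 without 1 library). The change on col1-ACLP+SB was 0.11 against col1 (adjusted p = 0.191, edgeR) and -0.16 against col1-ACLP, with a 95% interval from -0.26 to -0.058 (adjusted p = 0.112, edgeR). Without col1-ACLP+SB replicate 2 this last adjusted p was 0.0450, and by DESeq2 it was 0.0414. An antisense long noncoding RNA, BC006965, shares 13% of the exon bases of Sox9, but had 95 counts over all libraries against 247752 for Sox9.

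Sox6 (ENSMUSG00000051910, chromosome 7 from 115070107 to 115638031, minus strand), the SOX9 partner factor that was expressed, had 95.2, 84.9, 94.6 and 88.3 CPM on col1 (90.8 ± 5.01 CPM). On col1-ACLP its level was 119.8, 122.6, 132.9 and 130.2 CPM (126.4 ± 6.19 CPM), and on col1-ACLP+SB 102.9, 110.1, 113.5 and 113.7 CPM. The 3 groups did not overlap, with col1 lowest, col1-ACLP highest and the inhibitor group between them. Compared with col1, Sox6 rose by 0.48 on the log2 scale on col1-ACLP (standard error 0.056, adjusted p = 4.32e-07, edgeR) and by 0.28 on col1-ACLP+SB (adjusted p = 0.00120, edgeR). Both passed in all 20 alternative fits, and neither reached the fold threshold. Between the 2 ACLP groups the difference was -0.20, with a 95% interval from -0.31 to -0.084, which missed the threshold (adjusted p = 0.0733, edgeR; 0.0183 by DESeq2).

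Sox5 (ENSMUSG00000041540, chromosome 6, minus strand), the close relative of Sox6, had 11 counts in all. Of these, 10 were in col1 replicate 1 and 1 in col1 replicate 3, and the 8 libraries with ACLP had none. Its mean was 0.917 counts per library, under the filter, and with no filter its adjusted p was 0.286 for col1-ACLP and 0.347 for col1-ACLP+SB against col1 (edgeR). Acan (ENSMUSG00000030607, chromosome 7 from 78703231 to 78764847, plus strand), which encodes the main proteoglycan of cartilage, had 0 counts in every library. Over all 426028440 counts, 0 allows a level of up to 0.00704 CPM. Sox9 was thus counted at a high level in cells where aggrecan transcripts were not detectable at this depth.

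Comp (ENSMUSG00000031849, chromosome 8 from 70826208 to 70834716, plus strand) encodes a pentameric matrix glycoprotein of cartilage and tendon. It had 39.9, 35.3, 36.7 and 33.9 CPM in the col1 libraries (36.4 ± 2.56 CPM). With ACLP in the collagen the libraries had 27.3, 29.8, 29.8 and 32.1 CPM (29.7 ± 1.98 CPM). On col1-ACLP+SB it ranged more widely, with 38.5, 47.5, 29.8 and 37.8 CPM (38.4 ± 7.24 CPM). Each col1-ACLP library was below each col1 library, and the inhibitor group overlapped both. Comp was lower on col1-ACLP than on col1, with a change of -0.29 on the log2 scale (standard error 0.102, adjusted p = 0.0464, edgeR). That p passed 0.05 in 10 of 20 alternative fits, with a range from 0.00792 to 0.149, and in 4 of the 12 that left out 1 library (those without col1 replicate 4, col1-ACLP replicate 4, or col1-ACLP+SB replicate 2 or 3). It was 0.149 without col1 replicate 1, 0.0580 without col1 replicate 2 and 0.0907 without col1 replicate 3. Leaving out col1-ACLP replicate 1, 2 or 3 gave 0.149, 0.0821 and 0.0945, and leaving out col1-ACLP+SB replicate 1 or 4 gave 0.0570 and 0.0568. The difference between col1-ACLP+SB and col1-ACLP was 0.37, with a 95% interval from 0.16 to 0.58 (adjusted p = 0.0730, edgeR; 0.0253 by DESeq2 and 0.00282 by edgeR with no filter), and was 0.47 with an adjusted p of 0.00823 (edgeR) without col1-ACLP+SB replicate 3. Against col1 the inhibitor group differed by 0.072, with an interval from -0.14 to 0.28.

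Tnfrsf11b (ENSMUSG00000063727, chromosome 15 from 54114015 to 54141880, minus strand), the gene of osteoprotegerin, was the member that changed most among those tested. On col1 it had 30.2, 23.9, 23.0 and 28.9 CPM (26.5 ± 3.58 CPM). On col1-ACLP it had 78.6, 93.5, 81.6 and 96.1 CPM (87.4 ± 8.66 CPM). On col1-ACLP+SB it had 69.1, 54.5, 51.9 and 52.1 CPM (56.9 ± 8.22 CPM). The groups did not overlap in any pairing, and the inhibitor group lay between the others with replicate 1 above the rest. Against col1 it rose by 1.72 on the log2 scale on col1-ACLP (standard error 0.0983, adjusted p = 1.17e-12, edgeR) and by 1.10 on col1-ACLP+SB (standard error 0.0977, adjusted p = 9.14e-09, edgeR). The inhibitor group was lower than col1-ACLP, at -0.62 on the log2 scale (standard error 0.0947, 95% interval from -0.81 to -0.42, adjusted p = 0.000746, edgeR). This last difference sat close to the fold threshold: it was -0.57 without col1-ACLP replicate 4 and -0.58 without col1-ACLP+SB replicate 3, just inside the threshold, with adjusted p-values of 0.00515 and 0.00419 from edgeR. Its adjusted p was under 0.05 in all 20 alternative fits of each comparison, but edgeR's glmTreat, which tests the change against 0.58 itself, did not call the difference between the ACLP groups (adjusted p = 1).

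Runx2 (ENSMUSG00000039153, chromosome 17 from 44806874 to 45125684, minus strand), the factor that starts osteoblast differentiation, had 100.1, 108.6, 97.8 and 103.2 CPM on col1 (102.4 ± 4.68 CPM). On col1-ACLP its level was 94.3, 90.5, 91.3 and 92.7 CPM (92.2 ± 1.69 CPM), and on col1-ACLP+SB 88.9, 98.5, 94.96 and 98.0 CPM (95.1 ± 4.41 CPM). The col1-ACLP libraries were all below the col1 libraries by a small margin, and the inhibitor group overlapped both. The log2 fold change on col1-ACLP was -0.15 (standard error 0.0533, adjusted p = 0.0494, edgeR), and its adjusted p passed in 7 of 20 alternative fits, with a range from 0.00696 to 0.158. Of the 12 fits without 1 library, 2 passed, those without col1 replicate 3 and without col1-ACLP+SB replicate 2. The other 10 gave 0.0682, 0.158 and 0.104 without col1 replicates 1, 2 and 4, from 0.0751 to 0.117 without any 1 of the col1-ACLP libraries, and 0.0513, 0.0578 and 0.0636 without col1-ACLP+SB replicates 1, 3 and 4. The inhibitor group differed by -0.11 from col1 (adjusted p = 0.264, edgeR) and by 0.045 from col1-ACLP, with a 95% interval from -0.066 to 0.15. Runx2 shares 5.87% of its exon bases with the antisense Runx2os1 (324 counts in all) and 4.1% with Supt3 on the other strand (8078 counts), against 41247 counts for Runx2 itself, and the strand setting of the counting is not given in the sources used here.

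Dlx5 (ENSMUSG00000029755, chromosome 6 from 6877805 to 6882085, minus strand), a homeobox factor upstream of Runx2 and Sp7, was low. It had 6.76, 7.18, 5.07 and 7.76 CPM on col1 (6.69 ± 1.16 CPM), 6.23, 5.47, 6.75 and 4.25 CPM on col1-ACLP (5.68 ± 1.08 CPM) and 5.01, 5.44, 6.50 and 5.69 CPM on col1-ACLP+SB (5.66 ± 0.627 CPM). All groups overlapped. The log2 fold change on col1-ACLP was -0.24, with a 95% interval from -0.60 to 0.13 (adjusted p = 0.421, edgeR), and that between the ACLP groups was -0.0024, with an interval from -0.37 to 0.36. Counts of 120 to 337 per library gave a counting error of 5.45% to 9.13%, and replicates varied by 15.8% on average.

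Sp7 (ENSMUSG00000060284, chromosome 15, minus strand), the osterix gene, had 18, 34, 1 and 3 counts in the col1 libraries. It had 5, 0, 4 and 14 counts on col1-ACLP and 6, 14, 0 and 4 counts on col1-ACLP+SB. The groups overlapped and single libraries held most of the counts. Its log2 fold change of -0.93 on col1-ACLP had a 95% interval from -3.17 to 1.31 (adjusted p = 0.652, edgeR), so that neither a rise nor a fall was detectable at this depth. Alpl (ENSMUSG00000028766, chromosome 4, minus strand), the alkaline phosphatase gene, had 14 counts in col1 replicate 3, 4 in col1-ACLP replicate 1 and 14 in col1-ACLP replicate 2. The other 9 libraries had none, and the mean of 2.67 counts per library was under the filter. With no filter the adjusted p of Alpl was 1 for col1-ACLP and 0.156 for col1-ACLP+SB against col1, and 0.255 between the ACLP groups (edgeR).

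**Figure D3:**
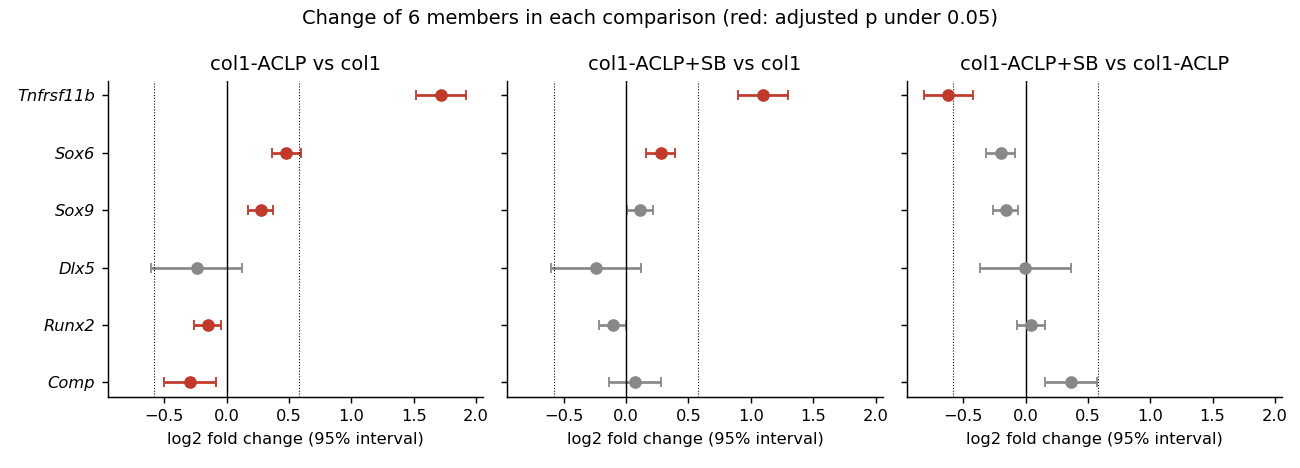
Log2 fold change (point) with its 95% interval (bar) from edgeR for 6 tested members in the 3 comparisons, in red where the adjusted p was under 0.05, with dotted lines at -0.58 and 0.58. Tnfrsf11b is the gene whose point lies past a dotted line, in each panel. Sp7, whose intervals are over 4 log2 units wide, is not drawn.

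With ALK5 inhibited, 1 of the 7 tested members, again Tnfrsf11b, was called against col1, where 2.28% of all tested genes were (1.27% higher), and 2 of 7 (Tnfrsf11b and Sox6) were higher by the adjusted p alone, against 9.13% (4.6% higher). Those 2 were also the members whose libraries did not overlap, as in 13% of all tested genes (6.7% higher). Between col1-ACLP+SB and col1-ACLP, 1 of 7 was called (Tnfrsf11b, lower), where 0.128% of all tested genes were (0.0425% lower), and it was the 1 that passed by the adjusted p alone (1.48% of all tested genes, 0.905% lower). Tnfrsf11b and Sox6 did not overlap there, against 8.17% of all tested genes (4.52% lower). The median log2 fold change of the 7 was 0.072 against col1 and -0.038 against col1-ACLP, and that of all tested genes was 0.0046 and 0.0049. The 3 comparisons share libraries and are not independent of one another.

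Ratios between members within a library do not depend on how libraries are scaled, and are given as a description. There were 5.06 to 5.36 Sox9 counts per Runx2 count in the col1 libraries, 6.69 to 7.51 on col1-ACLP and 5.68 to 6.33 on col1-ACLP+SB. This ratio was lowest on col1, highest on col1-ACLP and between on col1-ACLP+SB, with no overlap. Each ratio given here sets a member that was higher on col1-ACLP over a member that was lower. The separation of col1 from col1-ACLP therefore repeats the values above and adds no support to them. Sox6 had 0.782 to 0.968, 1.27 to 1.46 and 1.12 to 1.20 counts per Runx2 count in the same order. Tnfrsf11b had 0.627 to 0.853 counts per Comp count on col1, 2.74 to 3.14 on col1-ACLP and 1.15 to 1.79 on col1-ACLP+SB.

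**Figure D4:**
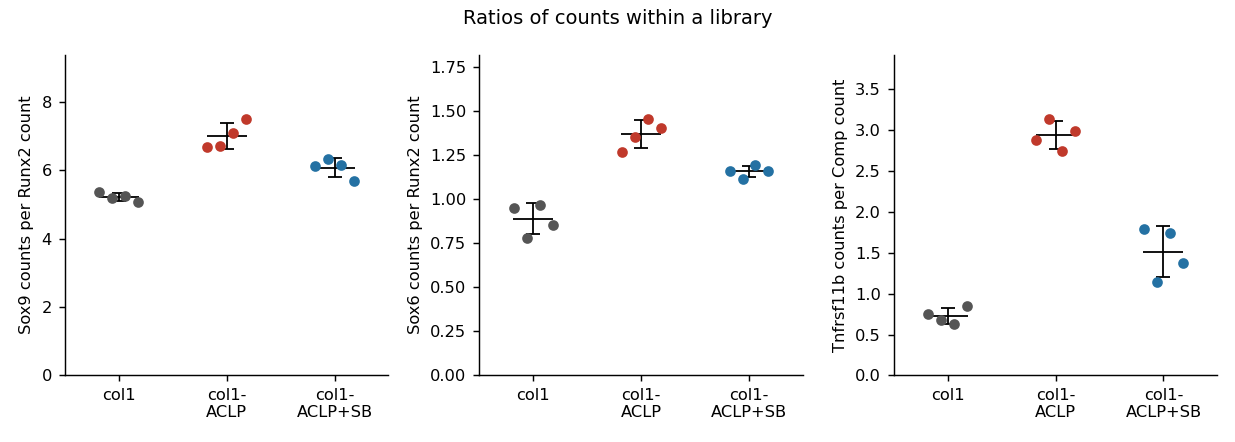
Ratio of the counts of 2 members within each library (points, 4 per group) with the mean ± SD, on linear axes from 0. In each panel the 3 groups occupy separate ranges, with col1 lowest and col1-ACLP highest.

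The gene whose level followed Tnfrsf11b most closely over the 12 libraries, among 10432 tested genes at a mean of at least 5 CPM, was Gask1b (Pearson r of log2 CPM 0.987), followed by Papss2 (r = 0.985). The 12 points share the 3 groups, so that any gene with the same order of groups has a high r.

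Other genes of the same lineages were examined in 8 lists, with 82 genes tested. Between col1-ACLP and col1, 12 were called higher and 6 lower, 22% of the 82 against 4.97% of all tested genes, and the share is a description of lists that were chosen with results known. Of 22 cartilage matrix genes, 19 were tested, 4 were called higher and 1 lower, and the median log2 fold change was 0.43. Col2a1, the main collagen of cartilage, went from 910.9 ± 75.5 to 3177 ± 471 CPM, which is 1.80 on the log2 scale. Col11a1, which copolymerizes with it, rose by 1.11, the fibril-binding proteoglycan Fmod by 1.34 and the link protein Hapln1 by 2.48, the last from 1.53 ± 0.299 to 8.51 ± 1.16 CPM. Ucma, a secreted protein of resting chondrocytes, fell from 79.0 ± 9.84 to 37.3 ± 3.81 CPM.

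Among 12 enzymes and transporters for the sulphated chains of proteoglycans, Papss2 and Slc26a2, which activate and import sulphate for that purpose, were called higher (log2 fold changes of 1.07 and 1.14) among the 12 tested. Of 10 tested chondrocyte regulators, 2 were called: Wwp2, a ubiquitin ligase whose gene carries a microRNA (0.88), and the Runx2 relative Runx3 (0.72). Another 2 were higher and 3 lower by the adjusted p alone, so that 7 of 10 passed it, against 17.9% of all tested genes, and the median over the 10 was -0.051. Of the 5 hypertrophic chondrocyte genes tested, the collagen gene Col10a1 was called higher, with few counts (2.40 ± 0.739 CPM on col1 against 5.26 ± 0.748 CPM with ACLP). Scx, a regulator of tendon, rose from 4.65 ± 0.643 to 22.5 ± 3.74 CPM and was the 1 of 5 tested tendon genes called.

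Of 13 tested osteoblast regulators, 3 passed by edgeR's adjusted p between col1-ACLP and col1, against 17.9% of all tested genes, each with a change inside the fold threshold, and the median log2 fold change was -0.014. Of the 3, 2 were higher, among them Zfp521 (0.35), and Twist1 was lower (-0.43). Of 16 tested genes of bone matrix and mineral, 1 was called higher and 5 lower, against 2.61% and 2.36% of all tested genes. The small proteoglycan gene Omd rose by 0.83. The 5 lower genes were Spp1 (osteopontin, from 272.3 ± 27.5 to 161.2 ± 9.94 CPM), the mineralization inhibitor Mgp (from 106.5 ± 15.9 to 55.4 ± 5.77 CPM), the pyrophosphate transporter gene Ank (from 502.7 ± 35.7 to 327.3 ± 9.73 CPM), and the osteocyte genes Dmp1 (from 9.65 ± 0.387 to 4.37 ± 0.742 CPM) and Phex (from 4.46 ± 0.484 to 1.78 ± 0.496 CPM). Mgp and Ank are known as inhibitors of mineral deposition. Without the fold threshold, 2 of the 16 passed the adjusted p as higher and 7 as lower, against 9.52% and 8.41% of all tested genes. The 2 were Omd and Sparc, the gene of highest level among those tested in the list. Sparc rose by 0.43 on the log2 scale, from a mean of 4134 to 5566 CPM. In the osteoclast control list 2 of 5 genes were tested, and Sema3a, which restrains osteoclasts, was called higher (0.89), while Csf1 had a log2 fold change of -0.23 that passed by the adjusted p alone.

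**Figure D5:**
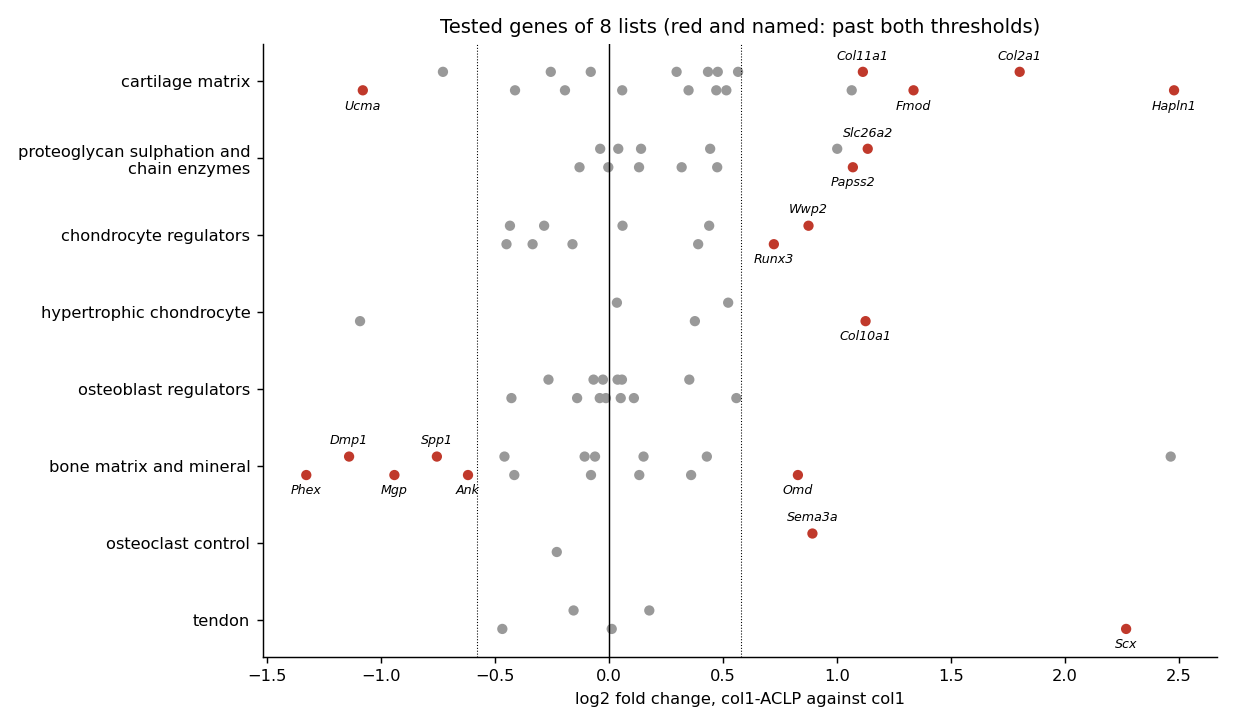
Log2 fold change between col1-ACLP and col1 of each tested gene in 8 lists, 1 point per gene, with called genes in red and named and dotted lines at -0.58 and 0.58. Called genes of the cartilage lists lie to the right except Ucma, those of bone matrix and mineral to the left except Omd, and the osteoblast regulators lie between the dotted lines.

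With the inhibitor, 11 of the 82 list genes were called higher than col1 and 1 lower (14.6%, against 2.28% of all tested genes). Col2a1, Col11a1, Fmod and Hapln1 were called higher and Ucma lower against col1, as were Papss2, Slc26a2, Wwp2, Col10a1, Omd, Sema3a and Scx higher. Col2a1 had 2451 ± 211 CPM on col1-ACLP+SB, a log2 fold change of 1.43 against col1. Of the 16 tested bone matrix genes, 5 were lower than on col1 by the adjusted p alone and 2 (Omd and Sparc) were higher, against 9.13% of all tested genes in either direction. The 5 were Spp1 (-0.58) and Mgp (-0.57), both close to the fold threshold, Ank (-0.47), the secreted-protein kinase gene Fam20c (-0.36) and the cadherin gene Cdh11 (-0.18). The adjusted p of Dmp1 and Phex against col1 was 0.0590 and 0.248 (edgeR) with the inhibitor. Between the 2 ACLP groups 1 of 82 was called (1.22%, against 0.128% of all tested genes): Dmp1 was higher with the inhibitor, 6.92 ± 1.38 against 4.37 ± 0.742 CPM (log2 fold change 0.66, adjusted p = 0.0432, edgeR). The count of called list genes there was 0 without col1 replicate 1 or 3, col1-ACLP replicate 1, 3 or 4, or col1-ACLP+SB replicate 2 or 4, and 2 without col1 replicate 2 or col1-ACLP+SB replicate 3. By the adjusted p alone, 2 of 19 cartilage matrix genes were higher and 4 lower with the inhibitor, and 2 of 12 sulphation genes lower, against 1.48% of all tested genes (0.905% lower). Among the 4 lower were Col2a1 (-0.37), Col11a1 (-0.34) and Fmod (-0.30), and Ucma (0.45) was 1 of the 2 higher. The 2 sulphation genes were Papss2 and Slc26a2, each at -0.46. All of these differences were inside the fold threshold.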

How the data were processed

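Poly(A) RNA of the 12 libraries was sequenced as paired reads of 150 bases and mapped with HISAT2. What the authors deposited was a table of counts per gene, neither normalized nor filtered. Per the labels the build is mm10, the methods of the study name GRCm39, and the deposited coordinates were compared with GRCm39: of 56017 gene identifiers found in GENCODE M39, 60.2% had the same start and end and 94.8% had both ends within 10000 bases. No mm10 annotation was compared. The counting tool, its strand setting and its handling of reads on overlapping genes are not given in the sources used here.

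The test was edgeR 4.0.16 under R 4.3.3 (filterByExpr, which kept 16465 genes and dropped 40283, TMM factors from 0.966 to 1.02, glmQLFit and glmQLFTest on all 12 libraries with 1 mean per group), with Benjamini-Hochberg adjustment over all genes tested. The thresholds of 0.05 and 0.58 follow the study's methods, which used DESeq2. Replicate pairs differed by more than sampling noise (chi-square divided by its degrees of freedom, 7.32 to 19.7). The members and gene lists were chosen with earlier results of these data known. Named list genes were those called in a comparison, and otherwise up to 2 of the highest level per list; Zfp521, Twist1, Sparc, Fam20c, Cdh11 and Csf1 were named for passing the adjusted p, after their values were seen. Some items are not reported here. Partner genes were the 2 with the highest correlation to a called member. Alternatives were edgeR RLE factors, library size alone, other filters, a replicate block, DESeq2 1.42.0, limma 3.58.1 (voom), fits of 2 groups, other call rules, and each library left out. A lane or date of sequencing was not given in the sources used here.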

Additional observations from a re-analysis of the deposited data

Results flagged for a closer look

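Over the levels of the members and the 3 ratios between members, 33 sets of 4 libraries had a range, and 3 of these held a library that stood apart from the other 3 by Dixon's criterion. Chance meets it in about 1 of 20 sets of continuous values, a rate that does not apply to the near-zero counts of Sox5 and Alpl. Tnfrsf11b on col1-ACLP+SB was highest in replicate 1, at 69.1 CPM, with a gap to the next library of 0.851 of the group's range. Sox5 on col1 was highest in replicate 1, at 0.261 CPM (10 counts), with a gap of 0.884 of the range. Alpl on col1 was counted in replicate 3 alone, at 0.425 CPM (14 counts), with the other 3 libraries at 0.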

How the results depend on the processing

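The call of Tnfrsf11b against col1 held in both ACLP groups under each alternative run, between 1.66 and 1.79 (col1-ACLP) and between 0.99 and 1.17 (col1-ACLP+SB) on the log2 scale, glmTreat against 0.58 included. Between the ACLP groups the count of called members was 0 under glmTreat and ranged from 0 to 1 with a library left out, being 0 without col1-ACLP replicate 4 (-0.57) and without col1-ACLP+SB replicate 3 (-0.58). With libraries left out, 1 member was called in each of the other comparisons, and the lists had 17 to 20, 9 to 14 and 0 to 2 called genes in the 3 comparisons. By the adjusted p alone, 5 and 2 members were called for the 2 ACLP groups against col1, and 41, 32 and 10 list genes, in place of 18, 12 and 1. glmTreat called 5 list genes for col1-ACLP+SB against col1 and 0 against col1-ACLP, and there DESeq2 and no filter called 2 each. The direction turned for some values that passed no threshold in their own comparison: Comp on col1-ACLP+SB against col1 was -0.045 without col1-ACLP+SB replicate 2 (range -0.045 to 0.18 with a library left out). Dlx5 between the ACLP groups was 0.022 with library size alone, 0.028 with limma-voom, 0.00095 with the 2 groups fitted alone, and 0.045, 0.089, 0.052 and 0.016 without col1-ACLP replicates 1 and 3 and col1-ACLP+SB replicates 1 and 2 (range -0.12 to 0.089). Sp7 was 0.0096 on col1-ACLP against col1 without col1 replicate 2 (range -1.93 to 0.0096), and between the ACLP groups 0.97, 0.0080, 0.41 and 0.096 without col1-ACLP replicate 4 and col1-ACLP+SB replicates 1, 3 and 4 (range -0.97 to 0.97). The cause of these turns was not tested. The remaining 399 values of single members and 111 of the counts kept their direction and their side of the call by both thresholds, or stayed within 1.5 times. By the adjusted p alone, Comp and Runx2 on col1-ACLP passed in 10 and 7 of 20 alternatives.

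Same-numbered replicates of different groups did not deviate together (correlations from -0.0372 to 0.036), and no pairing was taken from them. A fit with the replicate number as a block called 785, 357 and 17 genes in place of 819, 376 and 21, and 1 member in each comparison. Under that block Comp (adjusted p = 0.0567) and Runx2 (0.0689, edgeR) missed the threshold on col1-ACLP. Library size alone moved the median log2 fold change of all tested genes on col1-ACLP to -0.0599 and the called genes to 362 higher and 480 lower, from 430 and 389. Depth limits Sp7, Sox5 and Alpl, whose counts were below 35 per library, and the count for all tested genes between the ACLP groups was 46 with no filter, 39 with DESeq2 and 0 under glmTreat. In the quasi-likelihood test of no change, 2111 genes had an unadjusted p under 0.05 there. Over all genes, glmTreat called 230 for col1-ACLP and 81 for col1-ACLP+SB against col1.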
